A study of Homo sapiens with 8 samples.

Results

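NKRF peaks that lay between genes after the siRNA against Uc003xsl.1 numbered 604 of the 20386 peaks in the 4 NKRF lists of the study, 416 from si-Uc003xsl.1 replicate 1 and 188 from si-Uc003xsl.1 replicate 2. They were chosen from the 2 si-Uc003xsl.1 lists by their own values and positions. A peak was taken if it lay on chromosomes 1 to 22, held 10 or more sequence tags, was shorter than 500 bp and did not overlap a peak of the other si-Uc003xsl.1 list by 1 bp or more. Its summit had to lie outside every RefSeq protein-coding gene and more than 1 kb from every end of a protein-coding or lncRNA gene, which is called the intergenic space here. Summits inside an lncRNA gene but away from its ends were therefore kept. Tags, length, overlap between the si-Uc003xsl.1 lists and position of the chosen peaks are described below without a test, because they chose the peaks. The permutation test below concerns the position of all autosomal peaks of whole lists, of which the chosen peaks are a part.

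Chromatin immunoprecipitation followed by sequencing recovers the DNA fragments that an antibody against a chromatin protein pulls down, and a peak is a stretch where such fragments pile up above the input DNA. NKRF, the NF-kB repressing factor, is a nuclear protein known to bind negative regulatory elements in promoters such as those of interferon beta and IL8, and to work in the nucleolus in ribosomal RNA processing. Sequence between genes holds distal enhancers, insulators, repeats and stretches where reads are hard to place, so a peak there has no gene of its own and is named here by the nearest protein-coding gene.

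The cells were MDA-MB-231-P3, a highly metastatic subline of a triple-negative breast cancer cell line. One group was transfected with siRNA duplexes against the lncRNA Uc003xsl.1 (si-Uc003xsl.1, 2 NKRF libraries) and the other was the control siRNA group (control, 2 NKRF libraries). The series title names Uc003xsl.1 as a decoy for NKRF, so the comparison asks where NKRF was found once that RNA was targeted; no measurement of that RNA was analysed here. The labels do not say whether replicates came from separate cultures, so the permutation p below measures only the spread between these libraries.

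After filtering, the NKRF libraries held 18890698 and 11366267 tags in si-Uc003xsl.1 replicates 1 and 2, and 19335431 and 8250475 tags in control replicates 1 and 2. The list of control replicate 2 came from a newer version of the caller with a different threshold and read length and gives no tag count per peak, so in it replicate and processing cannot be told apart. The 10-tag minimum is the same in both si-Uc003xsl.1 lists and was not scaled to depth, so it asks for relatively more in the shallower replicate 2.

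The intergenic peaks that came closest to the start of a protein-coding gene are introduced first, with the promoter sequence they stood next to. NFIC encodes a nuclear factor I transcription factor, and its start lay 1006 bp from the summit of a peak of 23 tags in si-Uc003xsl.1 replicate 1 (chr19:3358567-3359052, GRCh38). TMEM87B, a gene for a Golgi membrane protein, had a peak of 16 tags 1030 bp from its start in the same library (chr2:112053997-112054381). In si-Uc003xsl.1 replicate 2, the closest was a peak of 11 tags 1020 bp from the start of the forkhead gene FOXB2 (chr9:77018504-77018782), followed by a peak of 18 tags 1314 bp from the start of the zinc finger gene ZNF141 (chr4:336380-336734). All 4 peaks lay upstream of the start, and none of them overlapped the 250 bases before it, which are printed 5′ to 3′ from RefSeq (GRCh38.p14) with each CG dinucleotide in capitals.
NFIC, chr19:3359380-3359629, plus strand: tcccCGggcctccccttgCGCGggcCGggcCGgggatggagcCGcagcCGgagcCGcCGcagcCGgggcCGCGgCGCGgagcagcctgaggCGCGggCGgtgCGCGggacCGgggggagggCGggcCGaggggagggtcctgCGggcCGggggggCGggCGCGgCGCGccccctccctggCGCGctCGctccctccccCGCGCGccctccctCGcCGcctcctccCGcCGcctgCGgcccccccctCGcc
TMEM87B, chr2:112055019-112055268, plus strand: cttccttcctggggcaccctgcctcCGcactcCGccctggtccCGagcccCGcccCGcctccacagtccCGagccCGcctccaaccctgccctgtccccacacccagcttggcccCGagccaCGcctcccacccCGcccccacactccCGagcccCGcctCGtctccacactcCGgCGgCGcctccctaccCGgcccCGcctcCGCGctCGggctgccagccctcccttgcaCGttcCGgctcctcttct
FOXB2, chr9:77019405-77019654, plus strand: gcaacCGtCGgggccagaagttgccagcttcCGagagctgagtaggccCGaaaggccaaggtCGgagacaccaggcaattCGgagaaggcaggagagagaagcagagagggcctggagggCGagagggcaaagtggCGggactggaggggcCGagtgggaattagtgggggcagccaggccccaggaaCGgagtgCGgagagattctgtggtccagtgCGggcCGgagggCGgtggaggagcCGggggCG
ZNF141, chr4:337564-337813, plus strand: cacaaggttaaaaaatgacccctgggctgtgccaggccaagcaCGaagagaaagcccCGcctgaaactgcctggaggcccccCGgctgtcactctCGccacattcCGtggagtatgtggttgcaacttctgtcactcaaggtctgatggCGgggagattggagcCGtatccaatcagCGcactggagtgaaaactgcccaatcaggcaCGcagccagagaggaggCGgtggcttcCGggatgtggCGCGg
These windows differ widely in base composition. The NFIC window is 87.2% G and C with 41 CG dinucleotides, and the ZNF141 window is 59.6% G and C with 13.

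A start with a RefSeq promoter window lay within 10 kb of 53 of the 416 intergenic peaks (12.7%) in si-Uc003xsl.1 replicate 1 and of 21 of the 188 (11.2%) in si-Uc003xsl.1 replicate 2. Peaks of 6 to 9 tags in the same space had one in 4.45% and 6.35%, and the control peaks there in 3.44% (replicate 1) and 4.71% (replicate 2). The promoters beside intergenic peaks were about as rich in CG dinucleotides as promoters at large. An observed to expected CG ratio of 0.6 or more was found in 34 of the 53 windows (64.2%, exact Clopper-Pearson 95% interval 49.8 to 76.9) and in 13 of the 21 (61.9%, 38.4 to 81.9), against 64.0% of the windows of all 15101 protein-coding genes with a sequence. Nor did the peaks sit mainly on the start side of their nearest gene. Where the strand was known, the nearest gene end was a start for 150 of 305 peaks (49.2%) and 68 of 150 peaks (45.3%) in si-Uc003xsl.1 replicates 1 and 2, against 53.1% and 55.0% of the peaks of control replicates 1 and 2 in the space.

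Most of the intergenic peaks were small. The 416 of si-Uc003xsl.1 replicate 1 made up 5.59% of its 7442 autosomal peaks (95% interval 5.08 to 6.14), and the 188 of si-Uc003xsl.1 replicate 2 made up 4.29% of its 4384 (3.71 to 4.93). Their median was 12 tags in replicate 1, with a highest value of 32, and 12.5 tags in replicate 2, with a highest value of 748. Their length had a median of 260.5 bp (101 to 499) in replicate 1 and of 291 bp (107 to 496) in replicate 2. The authors' fold enrichment over input had medians of 8.32 (4.04 to 20.91) and 7.70 (2.05 to 18.67). More tags went with lower enrichment, as Spearman's rho between tags and fold was -0.58 over the 416 peaks and -0.45 over the 188; both values belong to the same peaks and the caller's threshold links them.

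**Figure D1:**
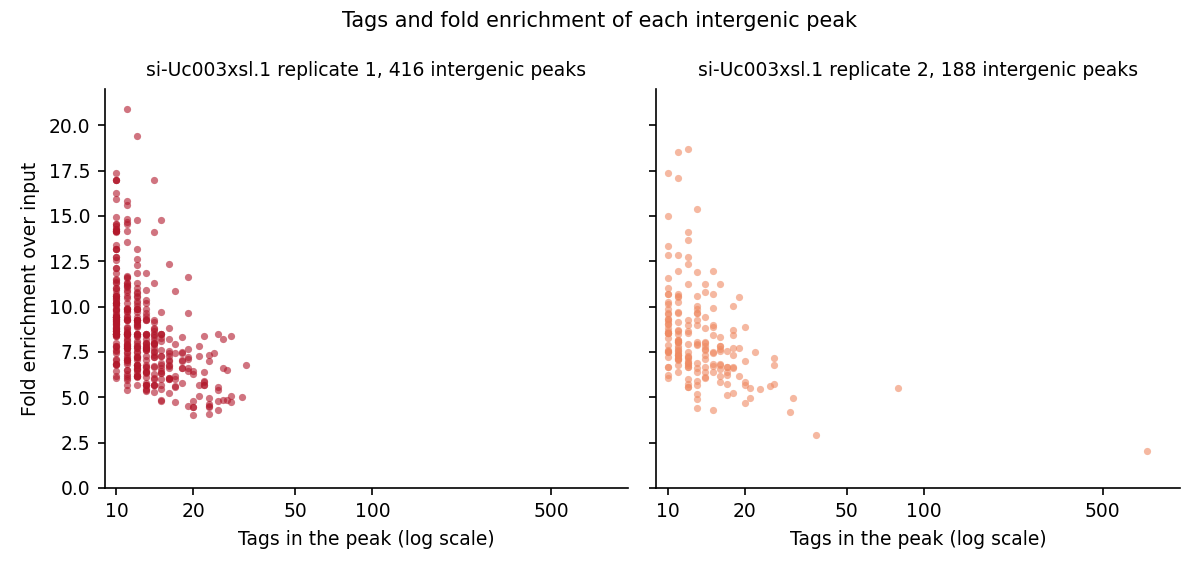
Each point is 1 intergenic peak, with its tags on a log scale across and its fold enrichment over input upward, for si-Uc003xsl.1 replicate 1 (left, 416 peaks) and replicate 2 (right, 188 peaks). Folds above 15 occur only at 14 tags or fewer, and the peaks of 79 and 748 tags in replicate 2 stand far to the right with folds of 5.52 and 2.05.

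By the caller's own estimate these peaks had high false discovery rates. The false discovery rate, estimated by exchanging ChIP and input, had a median of 30.7% in si-Uc003xsl.1 replicate 1 (21.54% to 32.6%) and of 11.3% in replicate 2 (0% to 42.5%). At or below 5% there were 0 of 416 and 1 of 188 intergenic peaks, where 0% and 0.0228% of all autosomal peaks of the lists reached that level. In control replicate 1 every one of the 42 peaks in the space with 10 or more tags and under 500 bp carried a false discovery rate of 100%.

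The thresholds cut through a dense part of both lists. At exactly 10 tags there were 106 intergenic peaks (25.5%) in si-Uc003xsl.1 replicate 1 and 35 (18.6%) in replicate 2. Just outside, 221 and 83 peaks of the space had 9 tags. Median folds on the inside and outside were 9.48 and 10.1 in replicate 1 and 9.06 and 10.5 in replicate 2. The longest peaks kept measured 499 and 496 bp and the shortest removed 501 and 505 bp, and the smallest distances kept were 1006 and 1003 bp from a gene end.

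Set beside peaks chosen by the same tag, length and overlap limits at other positions, the intergenic ones were shorter and lower in tags than those at protein-coding gene ends. Intergenic peaks with 20 or more tags were 39 of 416 (9.38%) and 18 of 188 (9.57%). Within 1 kb of a protein-coding gene end they were 43.8% of 480 peaks and 28.6% of 406, and inside protein-coding genes 15.3% of 672 and 9.19% of 457. Median lengths were 260.5 and 291 bp between genes, 343 and 346 bp at gene ends and 269.5 and 291 bp inside genes, so in replicate 2 intergenic peaks and peaks inside genes had close values in both measures. The order is a description, since tags, length and position all entered the choice.

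The share of a list that fell between genes dropped with the number of tags in the peak. In si-Uc003xsl.1 replicate 1 the space held 54.5% of the 6-tag peaks, 34.8% of those with 10 to 14 tags and 7.61% (83 of 1090) of those with 20 or more. In si-Uc003xsl.1 replicate 2 the same classes gave 48.5%, 21.2% and 6.19% (42 of 679). Control replicate 1 had 55.1% at 6 tags and 40.6% (41 of 101) at 10 to 14 tags, and no autosomal peak of 20 or more. At 6 and at 10 to 14 tags the interval of si-Uc003xsl.1 replicate 1 overlapped that of control replicate 1, and the interval of si-Uc003xsl.1 replicate 2 lay below it. These intervals cover counting error within single libraries and do not test the groups. The tag classes were not scaled to depth, so the same class asks for relatively more in a shallower library.

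**Figure D2:**
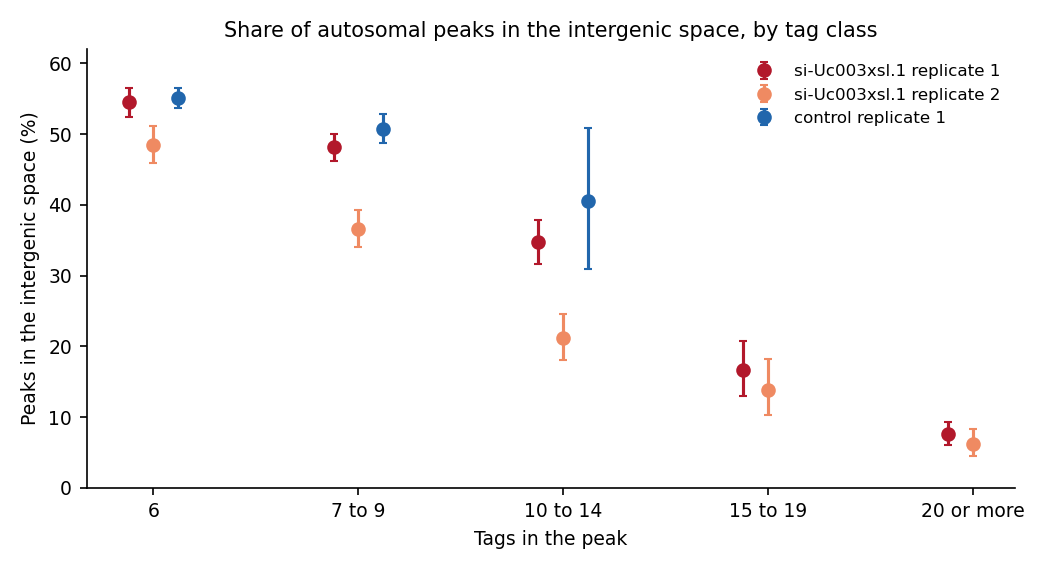
Percent of autosomal peaks with their summit in the intergenic space, by tags in the peak, for both si-Uc003xsl.1 lists and control replicate 1; points are single libraries, bars are exact Clopper-Pearson 95% intervals, and classes of under 100 peaks are not drawn. The share falls in both si-Uc003xsl.1 lists, to 7.61% and 6.19% at 20 or more tags.

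Over whole lists, a lower share of peaks of any size and length lay between genes in both si-Uc003xsl.1 libraries. The permutation test could not decide on this difference, because 2 libraries per group allow no p below 0.333. The space held 41% of the autosomal peaks of si-Uc003xsl.1 replicate 1 and 32% of those of replicate 2, against 53.6% in control replicate 1 and 49.8% in control replicate 2. The groups did not overlap, with means of 36.5% ± 6.37 after si-Uc003xsl.1 and 51.7% ± 2.70 in controls (SD, n = 2 each). The difference was -15.2 percentage points (two-sided exact permutation p = 0.333 over library labels, the lowest value possible with 3 splits). Among peaks of 6 to 9 tags alone, an alternative added after seeing the data, the shares were 51.1% and 42.9% after si-Uc003xsl.1 against 53.8% in control replicate 1, a difference of -6.76 points. Tags per peak also differed between the lists, with 2392 and 1628 autosomal peaks of 10 or more tags after si-Uc003xsl.1 against 103 in control replicate 1, and their part in the difference was not tested beyond the 6 to 9 tag peaks.

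Peaks of the size of the chosen ones were scarce in control replicate 1, in the space and outside it. It held 42 peaks of 10 or more tags and under 500 bp there, 0.569% of its autosomal peaks (95% interval 0.410 to 0.768), where the si-Uc003xsl.1 lists gave 5.59% and 4.29%. The highest count among those 42 was 15 tags, and the whole autosomal list had 103 peaks of 10 or more tags. Control replicate 2 has no tag counts; by a summit pileup of 10 or more, another measure, 25 of its 896 autosomal peaks (2.79%, 1.81 to 4.09) were of this kind. The rule chose the si-Uc003xsl.1 peaks on tags, so this sets a level beside them and is no test.

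Intergenic peaks were concentrated near genes even though the first 1 kb was excluded. In si-Uc003xsl.1 replicate 1 their density was 0.803 per Mb of intergenic space at 1 to 5 kb from the nearest protein-coding gene end (95% Poisson interval 0.627 to 1.01), 0.430 per Mb at 10 to 50 kb and 0.0840 per Mb beyond 500 kb (0.0575 to 0.119). In si-Uc003xsl.1 replicate 2 it was 0.441 (0.313 to 0.603), 0.202 and 0.0263 per Mb (0.0126 to 0.0483). The fall was steady over all 6 distance classes in both libraries. Within 10 kb the density was 6.37 and 9.44 times that beyond 100 kb in replicates 1 and 2.

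Smaller peaks of the same libraries did not have a gradient of that size, and neither did control peaks. For peaks of 6 to 9 tags in the same space the ratio was 0.990 in si-Uc003xsl.1 replicate 1 and 1.62 in replicate 2, and for all control peaks of the space it was 0.604 in replicate 1 and 1.03 in replicate 2. In counts, 115 of 416 (27.6%, 23.4 to 32.2) and 63 of 188 (33.5%, 26.8 to 40.7) intergenic peaks lay within 10 kb of a gene end, against 9.95% and 14.04% of the smaller peaks and 7.08% and 9.42% of the control peaks. The median distance was 25.2 and 20.7 kb for the intergenic peaks of 10 or more tags. It was 104.6 and 77.2 kb for the 6 to 9 tag peaks of the same libraries. For all peaks of the space in control replicates 1 and 2 it was 155.7 and 88.1 kb. In si-Uc003xsl.1 replicate 1 the ratio was 2.75 at 8 or more tags, 6.37 at 10 or more and 19.9 at 15 or more, and in replicate 2 it was 5.30, 9.44 and 8.33. Only replicate 1 thus continued upward past 10 tags. In replicate 2 the ratio at 15 or more tags rests on 59 peaks. Among these, peaks of 38, 79 and 748 tags lay 713878, 690204 and 402345 bp from a gene end, so they count beyond 100 kb. That ratio was not computed without them, so a difference between the replicates is not read from it. Base composition and mappability also change with distance from genes, and their part was not tested because no genome sequence was used.

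**Figure D3:**
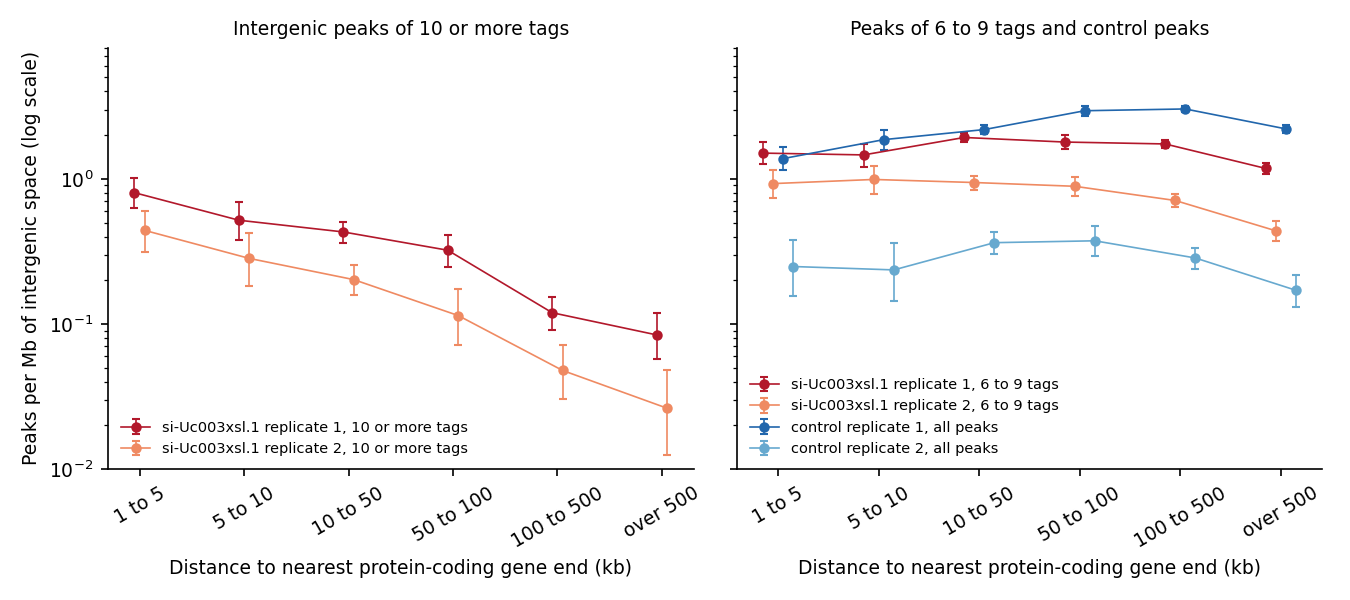
Peaks per Mb of intergenic space (log scale) in 6 classes of distance to the nearest protein-coding gene end, for the 604 intergenic peaks by library (left) and for peaks of 6 to 9 tags and all control peaks of the space (right); bars are exact Poisson 95% intervals. The left curves fall from 0.803 and 0.441 per Mb to 0.0840 and 0.0263 per Mb, while the right curves have density ratios between 0.604 and 1.62 within 10 kb over beyond 100 kb. Of the 3955 peaks of control replicate 1 in the space, 42 held 10 or more tags.

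The peaks farthest from any protein-coding gene end were mostly at or near the tag minimum. In si-Uc003xsl.1 replicate 1 they were 10 tags at chr4:33047483-33047708, 1900833 bp from PCDH7 (a protocadherin gene), 11 tags at chr11:52728323-52728468, 1874706 bp from the olfactory receptor gene OR4C46, and 10 tags at chr5:105732689-105732908, 1644096 bp from the ephrin gene EFNA5. In si-Uc003xsl.1 replicate 2 they were 10 tags at chr13:89363116-89363363, 1683622 bp from SLITRK5 and inside the pseudogene SP3P, 10 tags at chr11:42344380-42344625, 884908 bp from LRRC4C, and 18 tags at chr3:82505116-82505491, 743625 bp from GBE1, which encodes the glycogen branching enzyme. Of these 6 peaks, 1 exceeded 11 tags.

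Chromosomes differed in how many intergenic peaks they carried per Mb of space. Chromosome 19, the most gene-rich, had the most, with 14 peaks from each si-Uc003xsl.1 library or 1.17 per Mb over both. Chromosome 20 followed with 28 and 10 peaks (1.10 per Mb), then chromosome 11 with 41 and 15 (0.815 per Mb) and chromosome 17 with 20 and 9 (0.806 per Mb), where the 22 autosomes together had 0.380 per Mb. Chromosome 18 had 4 and 0 peaks, chromosome 21 likewise 4 and 0, and chromosome 15 had 5 and 1.

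Control peaks of any size were spread over the chromosomes in another way than the intergenic peaks of 10 or more tags. In control replicate 1, 42 of the 3955 peaks of the space held 10 or more tags, so group and tag class differ together here. Chromosome 19 had 0.754 peaks of control replicate 1 per Mb of space and chromosome 18 had 2.73, against 2.49 over all autosomes, so the chromosome richest in intergenic si-Uc003xsl.1 peaks was below that level in control replicate 1. In control replicate 2 chromosome 19 had 0.209 per Mb, nearer the 0.280 over all autosomes. Chromosomes 11 and 20 were above the overall level in control replicate 1, with 4.44 and 3.17 per Mb. Over the 22 chromosomes, which share libraries and differ in base composition, Spearman's rho between densities was 0.67 for the intergenic peaks of the 2 si-Uc003xsl.1 libraries. It was 0.36 and 0.12 between the intergenic peaks of si-Uc003xsl.1 replicates 1 and 2 and all control replicate 1 peaks of the space. Between the peaks of under 10 tags of si-Uc003xsl.1 replicate 1 and those control peaks, rho was 0.67. Between the intergenic peaks and the peaks of under 10 tags of the same library, it was 0.41 in si-Uc003xsl.1 replicate 1 and 0.57 in replicate 2. The contrast with control replicate 1 is therefore not read as a difference between the groups, which was not tested. Without chromosomes 11, 17, 19 and 20, left out after seeing the data, the near-to-far density ratio was 7.60 against 7.20 with them.

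**Figure D4:**
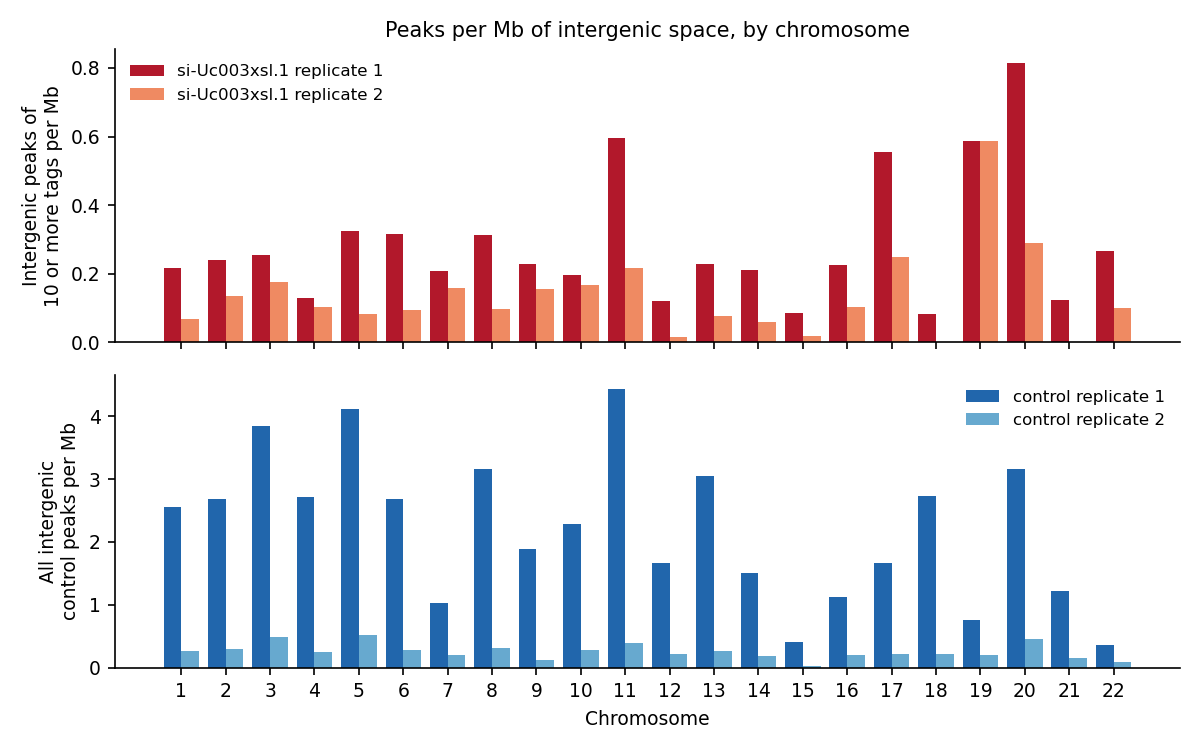
Peaks per Mb of intergenic space on each autosome: the 604 intergenic peaks by si-Uc003xsl.1 library (top) and all peaks of the space in the control libraries (bottom, own scale). Chromosomes 11, 17, 19 and 20 stand highest at the top, while chromosome 19 is low in control replicate 1 at 0.754 per Mb. Of the 3955 peaks of control replicate 1 in the space, 42 held 10 or more tags.

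The strongest intergenic peaks by p-value lay near genes of many kinds. In si-Uc003xsl.1 replicate 1 the first was a peak of 25 tags at chr5:181184003-181184403, 8.48-fold over input and 9664 bp from TRIM7, a ubiquitin ligase gene. It was followed by 14 tags at 14.1-fold near the keratin-associated protein gene KRTAP5-11 (chr11:71631499-71631780) and by 17 tags at 10.9-fold near USP22, the deubiquitinase of the SAGA complex (chr17:21061527-21061863). The other 5 of the leading 8 held 12 to 19 tags and were nearest to LOC101929601, TENM2 (a teneurin), NTRK2 (the BDNF receptor TrkB), ZNF37A and NECAP2. Tags and significance ranked differently, since the peak with most tags in the library had 32 at only 6.80-fold, 108269 bp from the heparan sulfate sulfatase gene SULF2 (chr20:47894706-47895106). Peaks of 31 tags at 5.01-fold near DEFB108B (chr11:71786401-71786860) and of 28 tags at 8.39-fold near SLCO4A1, an organic anion transporter gene, came next in tags.

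In si-Uc003xsl.1 replicate 2 one peak stood apart. It held 748 tags at chr3:93470345-93470816, 402345 bp from PROS1, the gene of the anticoagulant protein S, with a fold of only 2.05 and the single false discovery rate of 0% among the intergenic peaks. Control replicate 2 had a peak at the same place (chr3:93470387-93470768) with a pileup of 300 and a fold of 1.44. That was the highest pileup among its peaks of the space under 500 bp. The peaks with the next most tags were 79 tags at 5.52-fold (chr17:26603734-26603973, nearest WSB1) and 38 tags at 2.90-fold (chr10:41860239-41860345, nearest ZNF33B).

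All 3 of these lay in the widest interval of their chromosome that holds no gene of any kind. Elsewhere the highest count in that library was 31 tags, beside the homeobox gene MNX1 (chr7:157000313-157000763). Without them the mean of si-Uc003xsl.1 replicate 2 was 13.6 tags, against 18.0 with them. The remaining 7 of its leading 8 by p-value held 12 to 26 tags. Their nearest genes were FUT8 (a fucosyltransferase, the peak itself inside the pseudogene YBX1P1), MGAT5B, PSMG3 (a proteasome assembly chaperone), LOC124905368, GRM4 (a glutamate receptor), LOC112267897 and the histone gene H2BC11, and the LOC124905368 peak lay within the immunoglobulin kappa locus.

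Few intergenic peaks had a control peak close by. A control peak overlapped 1 of 416 in si-Uc003xsl.1 replicate 1 and 1 of 188 in replicate 2, and no further ones lay within 1 kb, where 0.658% and 0.57% of all autosomal peaks of the lists had one. Beside the chromosome 3 peak above, the other was 10 tags at 11.01-fold near BTNL8, a butyrophilin-like gene (chr5:180969413-180969676), overlapping by 117 bp a peak of control replicate 1 with 13 tags at 6.41-fold (chr5:180969560-180969768). Within 10 kb of a peak of either control lay 22 (5.29%, 3.34 to 7.90) and 6 (3.19%), against 5.76% and 5.22% of all autosomal peaks. Of the 6 to 9 tag peaks of the space, 7.28% and 6.94% had a control peak that close. Within 100 kb the intergenic peaks gave 38.5% and 30.9%, all autosomal peaks 41.0% and 37.9%. The 6 to 9 tag peaks of the space gave 49.5% and 51.3%. In both libraries the intergenic peaks were thus below these shares, and the differences were not tested.

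Some peaks of the 2 si-Uc003xsl.1 libraries lay near each other, although the rule barred direct overlap. A peak of the other si-Uc003xsl.1 list lay within 10 kb of 25 intergenic peaks of replicate 1 (6.01%) and of 27 of replicate 2 (14.4%), where all autosomal peaks gave 7.03% and 11.9% and the 6 to 9 tag peaks of the space 3.33% and 6.68%. The shares over all autosomal peaks include the 2.11% and 3.51% that overlap the other list, which the intergenic peaks could not do. They are therefore not a like background. The closest pair stood 782 bp apart near TPCN2, an endolysosomal two-pore channel gene, with 11 tags in replicate 1 (chr11:69115501-69115683) and 15 tags in replicate 2 (chr11:69114330-69114718). The next pair was 1255 bp apart near the RNA-binding protein gene RBM38 (chromosome 20), with 10 and 11 tags. Another pair, 1783 bp apart with 10 and 18 tags, lay inside the lncRNA gene LINC00452 on chromosome 13. Pairs near TMEM18 (4517 bp apart, 10 and 11 tags) and between ZFAND3 and BTBD9 (5798 bp apart, 19 and 15 tags) completed the 5 closest. No count in these 5 pairs exceeded 19 tags.

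The sequence between 2 neighbouring protein-coding genes is called a gene gap here. Intergenic peaks fell in 366 gaps in si-Uc003xsl.1 replicate 1 and in 170 gaps in replicate 2, of 16504 in all. Both libraries had one in 33 gaps, which is 9.02% of the gaps of replicate 1 and 19.4% of those of replicate 2. For 6 to 9 tag peaks the shared gaps were 27.6% and 46.9%, from more peaks per list. Of the 503 gaps with an intergenic peak, 430 held a single one.

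The 3 gaps with most intergenic peaks held 5 each. Between NKX1-1, a homeobox gene, and FAM53A on chromosome 4 (167.6 kb) there were 4 peaks of 12 to 16 tags in si-Uc003xsl.1 replicate 1 and 1 of 12 tags in replicate 2. Between LOC124905938 and LOC107985915 on chromosome 2 there were 1 and 4 peaks, all within 111.7 kb, and between ZNF337 and LOC124904970 on chromosome 20 there were 3 and 2 peaks. The last 2 gaps were 2764 and 5117 kb wide. Chosen after their values were seen, 4 peaks of replicate 1 lay between KRTAP5-11 and DEFB108B (14, 23, 14 and 31 tags), and 3 of replicate 2 lay within 1.68 kb of each other between BAHCC1 and ACTG1, the cytoplasmic gamma-actin gene (20, 25 and 16 tags).

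**Figure D5:**
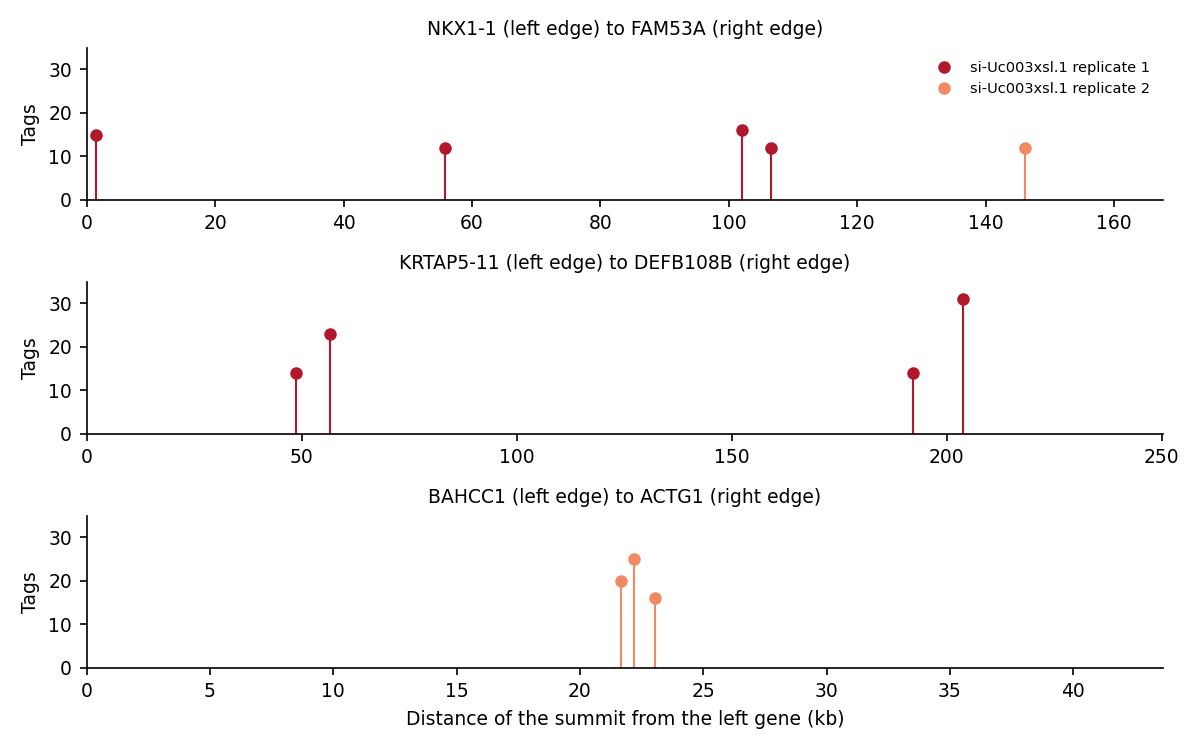
Position of each intergenic peak's summit, in kb from the left gene, against its tags in 3 gene gaps; colours mark the si-Uc003xsl.1 libraries and the axis spans the whole gap. The gap at NKX1-1 holds peaks of both libraries, the gap at KRTAP5-11 only replicate 1 and the gap at BAHCC1 a tight group of 3 from replicate 2.

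Some intergenic peaks lay inside genes that code for no protein. Summits within lncRNA genes, away from their ends, were 78 of 416 (18.75%, 15.1 to 22.8) in si-Uc003xsl.1 replicate 1 and 31 of 188 (16.5%, 11.5 to 22.6) in replicate 2, where lncRNA genes cover 20.5% of the space. Peaks of 6 to 9 tags had 24.0% and 22.8%, and control peaks 23.5% and 22.6%. The intervals of both si-Uc003xsl.1 libraries include the share of the space. Pseudogenes contained 25 (6.01%, 3.93 to 8.74) and 16 (8.51%, 4.94 to 13.5) summits, against 2.79% and 4.15% of the peaks of 6 to 9 tags and 1.92% and 2.69% of the control peaks in the space. Both libraries had a summit in SERPINB9P1 (10 tags in replicate 1, 22 in replicate 2) and in SSPOP (17 and 21 tags).

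The genes on either side of the intergenic peaks included 4 listed targets of NF-kB, the pathway in the study's title. A protein-coding gene was counted when it was the nearest one to the left or right of a summit, which took in 709 of 19126 genes (3.71%) for si-Uc003xsl.1 replicate 1 and 334 (1.75%) for replicate 2, with 80 in common (11.3% and 24.0% of each). Of 41 NF-kB target genes, 4 (9.76%) flanked a peak in replicate 1 and 0 in replicate 2. The 4 were CD83 (an immunoglobulin-family surface protein of dendritic cells, a peak of 28 tags at 74.2 kb), CCND1 (cyclin D1, peaks of 14 and 13 tags at 130.6 and 111.9 kb), CSF2 (the cytokine GM-CSF, 14 tags at 8.36 kb) and NFKBIA (the inhibitor I kappa B alpha, 12 tags at 32.6 kb). CXCL8, the gene of IL8, did not flank an intergenic peak in either library.

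Genes of mesenchymal transition and invasion gave 2 of 30 (6.67%) in si-Uc003xsl.1 replicate 1, TNC (491.2 kb from its peak) and TWIST2 (343.5 kb). In replicate 2 they gave 3 of 30 (10%), COL5A1 (182.0 and 11.9 kb), ITGB1 (47.6 kb) and SNAI2. SNAI2, which encodes the repressor Slug, had a peak of 10 tags at 7.07 kb. Of 19 breast epithelial markers, FOXA1 (11 tags at 5.96 kb) flanked a peak in replicate 1 and none did in replicate 2. Of 23 housekeeping genes TFRC alone did, in replicate 1 at 105.2 kb. TWIST2, TFRC and, among the NF-kB targets, CSF2 were not the nearest gene to their peaks. COL5A1 was not the nearest gene to its peak at 182.0 kb. None of these lists had more than 4 flanking genes in a library and none was tested, so nothing is read from these counts. The larger families had 16 and 20 of 506 ZNF genes (3.16% and 3.95%) and 6 and 0 of 389 olfactory receptor genes.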

How the data were processed

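NKRF and input DNA of MDA-MB-231-P3 cells were sequenced, and the peak lists of the 4 NKRF libraries were used; the 4 input libraries were not used beyond their role in the calling. The submitters' processing notes name Bowtie2, CASAVA 1.4 and the build GRCh38.p11; the alignment settings are not given in the sources used here. Both si-Uc003xsl.1 libraries and control replicate 1 went through MACS 1.4.2 at a p-value of 1e-04, and control replicate 2 through MACS 2.1.1.20160309 with a q-value limit of 0.05, each against its own input and not pooled, per the file headers. The MACS 1.4.2 lists hold the count of tags per peak, deposited without normalization, a score (the p-value as log10, times minus 10), the fold enrichment (a ratio over input) and a false discovery rate in percent, per the file headers. The other list holds a pileup signal, a fold enrichment, and p-values and q-values as -log10, per the file headers. Positions are the authors' own, 1-based.

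Summits were placed among 59792 genes of a RefSeq table on GRCh38.p14, which shares its primary chromosome coordinates with GRCh38.p11, and no gene coordinate of that table is printed. Promoter windows came from RefSeq on the same build, and 79.0% of autosomal protein-coding genes had one, which also gave the strand. Peak sequences were not read, as no genome of the build was used. The intergenic space runs between the outermost genes of each chromosome and includes assembly gaps. Intervals are exact Clopper-Pearson or Poisson 95% intervals and cover counting error only; tags may include PCR copies of 1 molecule. The rule was tested on simulated data. Members, gene lists and tests were chosen with earlier results of these data known. Peaks were named by rank: in each si-Uc003xsl.1 list the 8 highest scores, 3 highest tag counts and 3 largest distances, every peak within 1 kb of a control peak, the 5 closest pairs between the lists, the 3 fullest gene gaps, and list genes that flank a peak, at most 5 per list. The result for 1 gene list is not reported here. Python 3.11.15, pandas 2.3.3, numpy 2.4.6, scipy 1.17.1 and matplotlib 3.10.9 were used.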

Additional observations from a re-analysis of the deposited data

Results flagged for a closer look

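Peaks of 10 or more tags and under 500 bp also occurred outside the autosomes, in sequence that the comparisons do not use. On chromosome X there were 10 of 91 peaks in si-Uc003xsl.1 replicate 1 and 10 of 44 in si-Uc003xsl.1 replicate 2, against 0 of 38 in control replicate 1. On scaffolds not placed in a chromosome there were 14 and 10, against 9 in control replicate 1. As shares of all scaffold peaks these were 35% of 40 and 38.5% of 26, against 37.5% of 24 in control replicate 1, so the counts were higher and the shares were alike. Among autosomal peaks of any length, 10 or more tags were held by 2392 of 7442 and 1628 of 4384 in si-Uc003xsl.1 replicates 1 and 2. Control replicate 1 had 103 of 7380, so such peaks were scarce there on autosomes too. None of these differences was tested, and the lists differ in depth.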

How the results depend on the processing

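The share of peaks between genes kept its negative difference under every alternative run, from -25.7 points with the same number of strongest peaks per list (896) to -6.76 with 6 to 9 tag peaks. Leaving out 1 library gave -19.7 to -10.7. With the replicate number as a block the difference was -15.2 (exact sign-flip p = 0.5, the smallest that 2 pairs allow); nothing in the labels says what pairs the numbers. The tag minimum moved every other result. At 8 or more tags there were 1370 intergenic peaks, 6.72% with a control peak within 10 kb, a near-to-far density ratio of 3.31, 101 shared gene gaps and 27 flanking list genes. At 15 or more tags these were 159, 2.52%, 14.1 (19.9 and 8.33 in replicates 1 and 2), 4 and 3. A depth-scaled minimum (17 tags in si-Uc003xsl.1 replicate 1, added after seeing the data) gave 251, 2.79%, 10.6, 9 and 6. Those 251 were 63 in replicate 1 and 188 in replicate 2, the reverse of the order of the 416 and 188 at 10 tags. The values as reported were 604, 4.64%, 7.20, 33 and 14. Leaving out 1 si-Uc003xsl.1 list gave 188 to 416 peaks, 3.19% to 5.29%, ratios of 6.37 to 9.44 and 4 to 11 list genes; shared gaps need both lists. Under 300 bp left 16 shared gaps and 9 list genes, and counting all gene types as genes left 19 shared gaps. With control replicate 2 alone 0.497% had a control peak within 10 kb. Without the widest gene-free interval of each chromosome, added after seeing the data, 599 peaks and a ratio of 6.15 were left. The cause of these shifts was not tested. At 10 to 14 tags a peak rests on few fragments, so single peaks are weakly supported at this depth.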
